A study of Drosophila melanogaster with 6 samples.

Results

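The genes for the protein components of the mitochondrial ribosome were followed in global run-on sequencing (GRO-seq) of Drosophila melanogaster embryos at stage 5, when the zygotic genome is activated. Earlier results of these data were known when this set was chosen, but its rule used names only. It takes every row of the count table whose FlyBase identifier has a symbol starting with mRpL or mRpS in the dm6 assembly's annotation. This gave 72 of 17753 genes, 47 for the large and 25 for the small subunit. A further annotated gene, mRpS5, was not analysed here. GRO-seq lets polymerases that are already engaged in isolated nuclei extend their RNA with a labelled nucleotide, so the reads come mainly from transcription under way and not from RNA that the mother stored in the egg.

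Embryos labelled genotype t180 (Ctrl) were compared with embryos labelled genotype t216 (DomKD). According to the study's methods both came from mothers carrying the germline driver mat-alpha-Gal4. It drove a control RNAi line in Ctrl and a short hairpin against both isoforms of Domino in DomKD. Domino is the ATPase that puts the histone variant H2A.Z into nucleosomes, and the comparison asks how zygotic transcription differs when the maternal supply of it is lowered. Each library came from a pool of hand-picked embryos, so the spread between libraries is that between pools. The 3 libraries of each group were made in 2 batches, with Ctrl A1, DomKD A1 and DomKD A2 in batch A and Ctrl B1, Ctrl B2 and DomKD B1 in batch B.

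The libraries summed to between 12487166 and 24537992 counts in Ctrl and between 10660708 and 15790602 in DomKD, so DomKD libraries were the shallower ones in both batches. Tested genes without a read numbered 162 to 326 in Ctrl and 564 to 1014 in DomKD. The nascent signal of dom itself did not differ detectably, at 789 ± 72.9 CPM (counts scaled to library size, SD, n = 3) in Ctrl and 774 ± 167 in DomKD (log2 fold change 0.01, SE 0.18, edgeR adjusted p = 0.973). These libraries read zygotic transcription and so do not check the maternal knockdown. The 8 blastoderm genes looked at (such as eve, ftz and sna) summed to 2784 to 6057 CPM in Ctrl and 7631 to 11817 in DomKD. Lists of 4 muscle, 2 hemocyte and 4 ovarian somatic genes summed to at most 4.94 CPM in Ctrl and at most 31.5 in DomKD, with Cp36 and Vm26Aa of the ovarian list at 0 in every library. The 4 neuronal genes summed to 320 to 559 CPM in Ctrl and 275 to 538 in DomKD.

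Mitochondria keep ribosomes of their own, which translate the few proteins encoded by mitochondrial DNA, nearly all of them subunits of the respiratory chain. The RNAs of these ribosomes come from the mitochondrial genome, whereas all of their proteins are encoded in the nucleus, made in the cytoplasm and imported. About the ribosome's core are proteins with counterparts in bacterial ribosomes, and around them sit proteins found only in mitochondria. In the early embryo mitochondria and their ribosomes are inherited from the egg, and new transcripts for the ribosomal proteins come from the nuclear genes.

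The genes were short and lay close to others. Among the 70 that could be tested the gene span had a median of 859 bases, against 2581 over all tested genes, and ranged from 390 bases for mRpL34 to 13391 for mRpS9. They were spread over the chromosome arms, with 21 on 3R, 16 on 3L and 11 on each of X, 2L and 2R. A protein-coding gene started on the opposite strand within 500 bases upstream of 51 of the 70 (72.9%), against 32.0% of all 9200 tested protein-coding genes, 38.6% of 88 cytoplasmic ribosomal protein genes and 44.9% of 69 genes for subunits of oxidative phosphorylation. Such head-to-head pairs share the stretch between their starts, which was as short as 20 bases at mRpL18 and its neighbour Taz.

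The sequence around the start was searched on both strands from 250 bases before to 50 bases after it for motifs of fly promoters. The E-box CAGCTG, a type of sequence bound by basic helix-loop-helix proteins, lay in this window at 38 of 70 genes (54.3%), against 20.3% of all tested protein-coding genes, 7.95% of cytoplasmic ribosomal protein genes and 27.5% of oxidative phosphorylation genes. It lay within 50 bases of the start at 33 of them (47.1%), against 11.5% of protein-coding genes. The longer form CAGCTGTT was found at 37.1% of the mitochondrial ribosomal protein genes and at 9.65% of protein-coding genes. This motif was singled out after the shares had been seen. The DNA replication-related element (DRE) TATCGATA, the site of the factor DREF, lay at 15 of 70 (21.4%), against 12.8% of protein-coding genes, 29.5% of cytoplasmic ribosomal protein genes and 11.6% of oxidative phosphorylation genes. Shares of the other motifs were nearer to those of protein-coding genes, with GGTCACAC at 10.0% against 10.9%, GTATNTTT at 18.6% against 16.6%, TATAAA at 47.1% against 44.5%, GCGCATGC at 1.43% against 1.20%, and CAGGTA, the core of the site of the pioneer factor Zelda, at 10.0% against 6.73%.

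**Figure D1:**
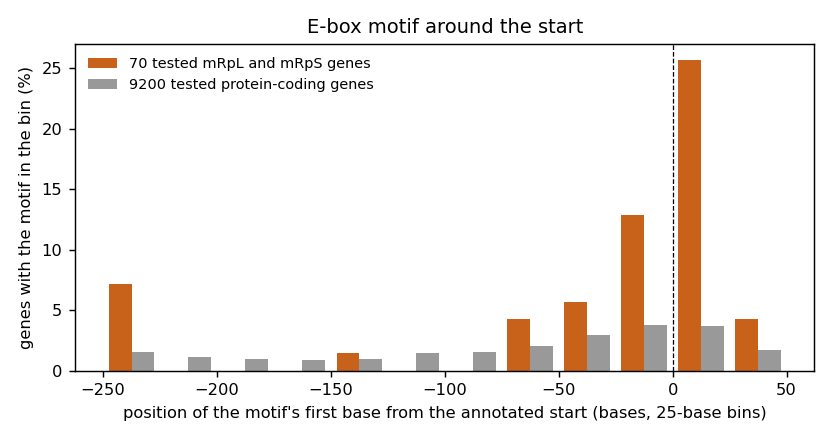
Percent of genes with the E-box in each 25-base bin (y axis) by the position of its first base from the annotated start (x axis, in bases, with the start at 0), for the 70 tested mRpL and mRpS genes and for 9200 tested protein-coding genes. The bin from 0 to 24 bases after the start held the motif at 18 of 70 genes (25.7%) against 3.66% of protein-coding genes, and a smaller group of 5 genes had it 226 to 250 bases upstream.

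As examples, 30 bases around the E-box (in capitals) are given for 8 genes. These had the highest Ctrl level per kb among genes with the motif within 50 bases of the start. Genes on the right arm of chromosome 2 were left out. All 8 were chosen for holding the motif, so the capitals are shared by selection. The stretches are read 5′ to 3′ along the gene from the Release 6 genome of RefSeq (dm6 coordinates).
mRpS18B, chr2L:20097216-20097245, minus strand: tgtatcggaaaaCAGCTGatccgccggctc
mRpL19, chr3R:8674105-8674134, plus strand: tatcggtgctgcCAGCTGattatagtgcgg
mRpS18C, chr3R:30423917-30423946, plus strand: agcactgccgaaCAGCTGttcacagctaca
mRpL47, chr3R:9515873-9515902, minus strand: ttgttattgcttCAGCTGttttgttcggtc
mRpL46, chr3L:1777425-1777454, plus strand: tgtgccgcaaatCAGCTGttccggctctgg
mRpL48, chr2L:1710471-1710500, plus strand: gctgcacgccatCAGCTGgtgatataacct
mRpS34, chr3L:16348064-16348093, plus strand: agccagccggcaCAGCTGttcgaccttccc
mRpS35, chr3L:2780875-2780904, plus strand: agtttctgtaaaCAGCTGattgcttgctat
In these 8 genes the motif began between 45 bases before the start (mRpS18C) and 21 bases after it (mRpL48). On its 3′ side 4 of the 8 continued with TT. The longer form was searched on both strands above, and mRpS18B and mRpS35 held it on the other strand.

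Every gene that could be tested was read in all 3 Ctrl libraries. The lowest count there was 31 in Ctrl A1, 61 in Ctrl B1 and 113 in Ctrl B2. Levels per kb of gene span had a median of 18.7 CPM per kb in Ctrl, with quartiles of 13.0 and 27.9. The median was 8.58 over all tested genes, 24.3 over oxidative phosphorylation genes and 46.5 over cytoplasmic ribosomal protein genes. Large and small subunit genes had Ctrl medians of 19.5 and 15.4 CPM per kb.

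At the top stood mRpS7 at 65.2 CPM per kb, for the protein in the head of the small subunit beside the exit path of the tRNAs, and mRpL34 at 64.8, for a small protein with a bacterial counterpart. They were followed by mRpS17 at 58.4, for a protein that binds ribosomal RNA early in assembly, mRpL42 at 45.8, for a protein found only in mitochondria, mRpL22 at 44.7, for a protein that lines the exit tunnel of the nascent chain, and mRpS18B at 43.2, for a relative of bacterial S18. The libraries behind these means spread widely for mRpL34, with 14.7 CPM in A1, 28.9 in B1 and 32.2 in B2, and little for mRpS18B, with 37.7, 40.4 and 41.7 CPM. The lowest level per kb was that of mRpL24 at 3.39, and mRpS9 was next at 3.91, with 52.3 CPM over its span of 13391 bases.

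Both genes that could not be tested had no read in any library. mRpL13 lies on 2L between bases 18858028 and 18859248, wholly inside CG10602 on the same strand, and mRpL53 has the same span and strand as CG33155. Reads that fall in 2 genes of the same strand are not assigned to either in a default count, so these zeros say nothing of transcription. The end of mRpS14 also overlaps a gene of its strand, CG32533.

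Set against Ctrl, 5 of the 70 tested genes were called lower in DomKD and 2 higher (edgeR quasi-likelihood test, adjusted p under 0.05). That is 10.0% called, against 21.7% of all 10429 tested genes. By direction it is 7.14% lower against 9.64% of all tested genes, and 2.86% higher against 12.1%. In both directions the share was below that over the whole table. For genes called lower this turned when Zelda target genes set the scale, at 52.9% of the 70 against 45.1% of all tested genes, with 0% and 0.863% called higher. The genes called lower were mRpS9, mRpL37, mRpL27, mRpL30 and mRpL12, and those called higher were mRpS7 and mRpL42. With the main scaling (TMM) fold changes were below 0 for 50 of the 70 genes and above 0 for 20. This split depended on the scaling. With total counts 63 of the 70 were below 0. With a list of Zelda target genes, standing in for the set the study scaled on, 69 were. Those scalings moved the median of all tested genes to -0.56 and -1.06. With TMM the median log2 fold change of the 70 genes was -0.39, against -0.07 over all tested genes, a difference of -0.32. In log2 CPM the Ctrl and DomKD libraries did not overlap for 21 of them (30.0%), against 40.6% of all tested genes. Of these 18 (25.7%) were lower in DomKD, against 23.4% of all tested genes, and 3 (4.29%) were higher, against 17.2%.

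**Figure D2:**
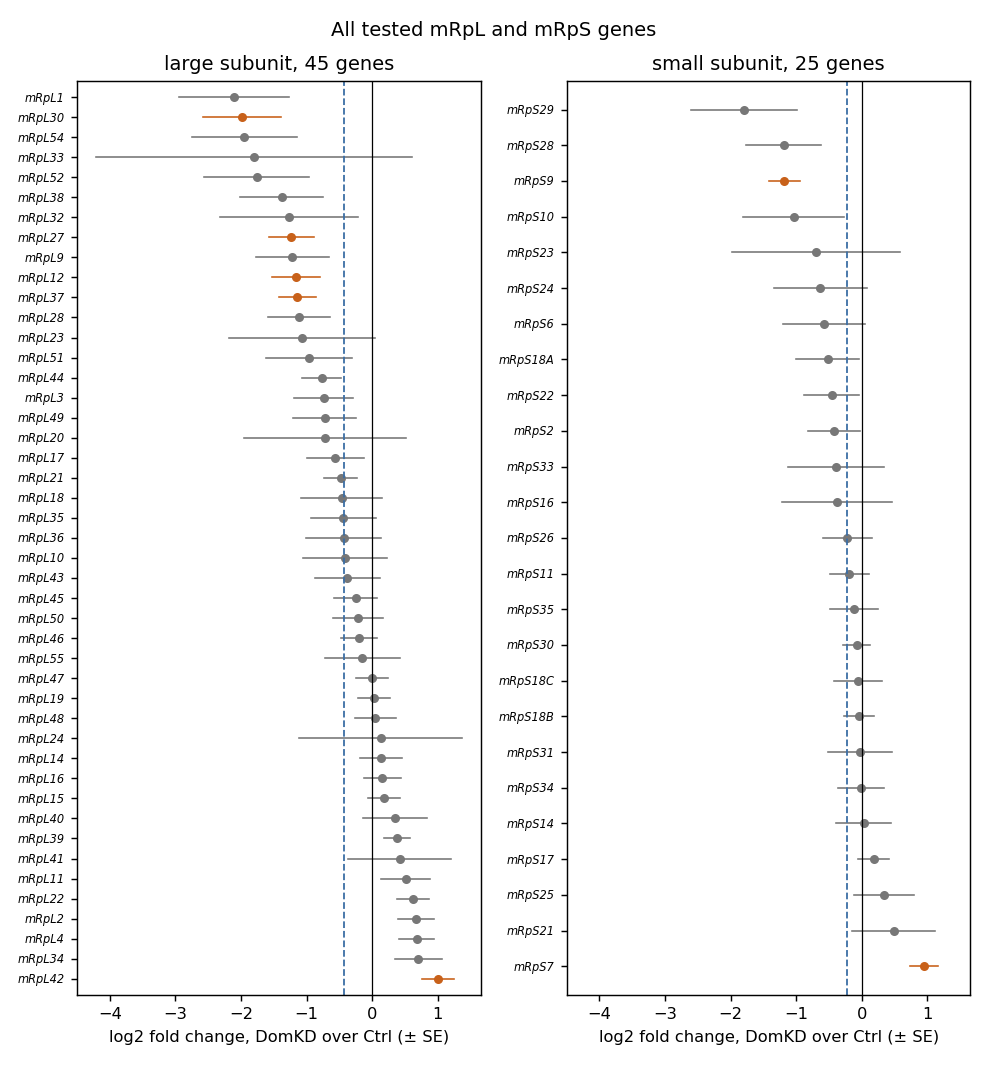
Log2 fold change of DomKD over Ctrl (x axis, bars ± SE of the fit to 6 libraries) for each of the 45 large and 25 small subunit genes tested (y axis). Genes past the threshold are in orange, and the dashed lines mark the medians of -0.43 and -0.22.

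The genes called lower stand for several places in the ribosome. mRpS9, whose protein reaches with its tail towards the tRNA in the P site of the small subunit, was read in the Ctrl libraries (A1, then B1, then B2, an order kept below) at 53.3, 54.3 and 49.4 CPM and in the DomKD libraries (A1, then A2, then B1) at 20.4, 19.8 and 26.8. All DomKD libraries lay under all Ctrl libraries, and the level was 2.27-fold lower (log2 fold change -1.18, SE 0.24, adjusted p = 0.00515).

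mRpL37 encodes a protein of the large subunit that has no counterpart in bacteria. It was at 39.4, 41.9 and 40.9 CPM in Ctrl and 20.2, 12.9 and 20.3 in DomKD, which was 2.20-fold lower (log2 fold change -1.14, SE 0.28, adjusted p = 0.0147). mRpL27, whose bacterial counterpart lies by the peptidyl transferase centre, was at 32.5, 33.3 and 33.1 CPM in Ctrl and 9.14, 18.3 and 14.1 in DomKD. The 3 Ctrl libraries were nearly level and the DomKD libraries were spread well under them (log2 fold change -1.24, SE 0.34, adjusted p = 0.0239).

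mRpL30, for a large subunit protein with a bacterial counterpart, had the largest change of the genes called and the fewest reads. Its reads numbered 309, 332 and 520 in Ctrl but 17, 75 and 58 in DomKD. As CPM these were 21.9, 11.7 and 20.1 in Ctrl and 1.90, 8.33 and 4.34 in DomKD, without overlap (log2 fold change -1.99, SE 0.59, adjusted p = 0.0333). mRpL12 encodes the protein of the flexible stalk to which translation factors bind. It was at 22.2, 24.2 and 20.4 CPM in Ctrl and 11.0, 8.66 and 10.0 in DomKD, which was 2.24-fold lower (log2 fold change -1.16, SE 0.36, adjusted p = 0.0415). mRpL10, for the protein that holds this stalk on the ribosome, was at 6.10, 10.2 and 12.8 CPM in Ctrl and 5.80, 8.88 and 5.38 in DomKD, with overlap between the groups (log2 fold change -0.41, SE 0.64, adjusted p = 0.694).

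Both genes called higher were among those with the highest Ctrl level per kb. mRpS7 was at 73.0, 71.8 and 49.1 CPM in Ctrl and at 104, 114 and 150 in DomKD, which was 1.92-fold higher (log2 fold change 0.94, SE 0.22, adjusted p = 0.0101). mRpL42 was at 22.8, 25.9 and 32.8 CPM in Ctrl and 35.6, 47.4 and 64.0 in DomKD (log2 fold change 1.00, SE 0.25, adjusted p = 0.0143). Its highest Ctrl and lowest DomKD library were close, at 32.8 and 35.6. Both calls depended on how libraries were scaled. With factors from Zelda target genes, which moved the median of all tested genes to -1.06, the change of mRpS7 turned to -0.04 and that of mRpL42 kept its sign at 0.0036.

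**Figure D3:**
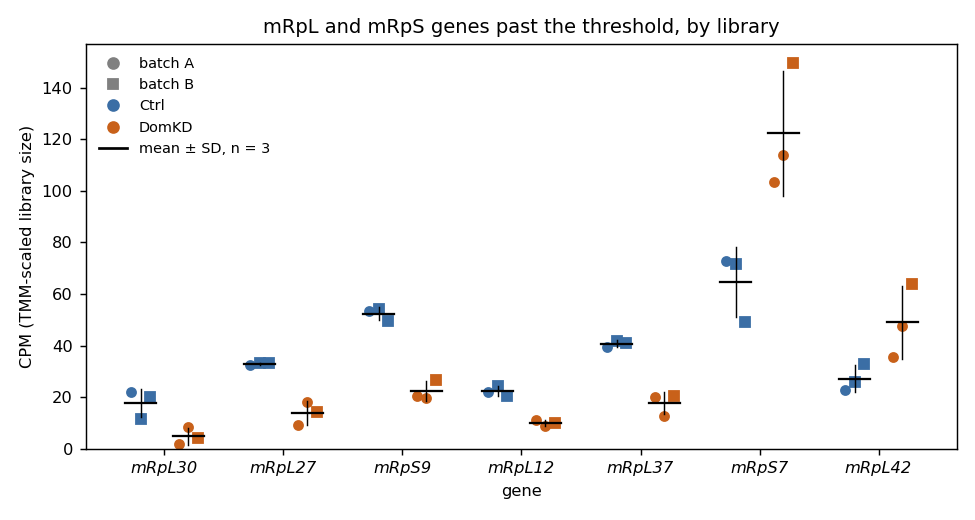
CPM per library (y axis, TMM-scaled library sizes) of the 7 genes past the threshold (x axis), with batch A as circles, batch B as squares and the mean ± SD of 3 libraries in black. DomKD libraries lie under all Ctrl libraries for mRpL30, mRpL27, mRpS9, mRpL12 and mRpL37 and above them for mRpS7 and mRpL42.

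The stretch of 150 bases just before the start is shown for genes past the threshold. It is shown only where the chromosome arm allows it and no other annotated gene lies in it. Of the genes called higher only mRpS7 is thus shown. mRpL22, which was not past the threshold, was added because it is a gene of high level with a DRE. Capitals mark a DRE or an E-box, and the last base is the one before the start.
mRpS9, chr3R:7902668-7902817, minus strand: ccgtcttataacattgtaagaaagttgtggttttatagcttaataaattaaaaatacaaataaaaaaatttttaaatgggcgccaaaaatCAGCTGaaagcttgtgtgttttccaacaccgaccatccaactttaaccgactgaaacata
mRpL37, chr3R:10784093-10784242, minus strand: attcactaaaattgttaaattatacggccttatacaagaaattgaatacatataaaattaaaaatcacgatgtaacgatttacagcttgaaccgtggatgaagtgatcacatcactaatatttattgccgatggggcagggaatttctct
mRpL30, chrX:4647721-4647870, plus strand: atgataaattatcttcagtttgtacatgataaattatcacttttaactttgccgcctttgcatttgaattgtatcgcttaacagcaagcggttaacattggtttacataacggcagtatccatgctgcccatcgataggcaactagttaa
mRpL12, chr3L:8956641-8956790, plus strand: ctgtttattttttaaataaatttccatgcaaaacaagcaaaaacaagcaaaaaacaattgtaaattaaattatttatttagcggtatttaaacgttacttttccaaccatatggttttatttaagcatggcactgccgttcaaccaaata
mRpS7, chr2L:10386512-10386661, plus strand: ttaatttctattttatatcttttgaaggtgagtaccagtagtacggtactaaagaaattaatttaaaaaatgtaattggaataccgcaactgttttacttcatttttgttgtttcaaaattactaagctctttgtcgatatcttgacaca
mRpL22, chrX:16783783-16783932, plus strand: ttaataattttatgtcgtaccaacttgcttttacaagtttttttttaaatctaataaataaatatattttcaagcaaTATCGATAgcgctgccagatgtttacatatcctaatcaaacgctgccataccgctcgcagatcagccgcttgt
Of these mRpS9 held the E-box, 60 bases before its start, and mRpL22 the DRE, 73 bases before. mRpL12 has its DRE after the start, at base 23, within ccctggctgttTATCGATAaactgctcaca.

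None of the 33 genes with the E-box within 50 bases of the start was past the threshold, against 7 of the 37 without it. Over the whole window searched, 2 of the 38 genes with the motif were called (mRpS9 and mRpL42, 5.26%), against 5 of the 32 without it (15.6%). For that window the shares over protein-coding genes were close, at 20.8% of 1866 with the motif and 21.7% of 7334 without. For the motif within 50 bases, over protein-coding genes the shares called were 18.1% of 1056 with it and 22.0% of 8144 without. Median log2 fold changes were -0.21 with the motif and -0.46 without it among the mitochondrial ribosomal protein genes, and -0.32 and -0.11 among protein-coding genes. The 15 genes with a DRE had a median of -0.41 with 1 gene called (6.67%), and the 55 without it one of -0.38 with 6 called (10.9%). Among protein-coding genes the DRE went with a median of -0.42 over 1178 genes (23.5% called), against -0.08 over the 8022 without (21.2% called).

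The head-to-head arrangement went with lower values over the whole table. Protein-coding genes with a neighbour starting on the opposite strand within 500 bases upstream had a median log2 fold change of -0.39 over 2945 genes, and those without one of 0.03 over 6255. Among the mitochondrial ribosomal protein genes the medians were -0.42 over 51 and -0.25 over 19. The neighbour itself was tested in 50 pairs. Of these neighbours 7 were called lower and 1 higher (16.0% called). The gene for the ribosomal protein was called in 5 pairs (10.0%). With both directions counted, each share was below the 21.7% of all tested genes. By direction the neighbours differed from the whole table. The 7 of 50 called lower were a larger share than the 9.64% of all tested genes called lower. The 1 of 50 called higher was a smaller share than the 12.1% called higher. Each neighbour is itself a gene of this head-to-head kind. Of all 2945 such protein-coding genes 464 were called lower and 153 higher (21.0% called). The lean to lower calls was thus not particular to these neighbours. The changes of a pair had the same sign in 33 of 50 pairs, called or not. As an example, Snr1, for a subunit of the Brahma chromatin remodeller, was at 31.7 CPM in Ctrl and 8.50 in DomKD (log2 fold change -2.13, adjusted p = 0.00298), while mRpL44, whose start lies 290 bases away, had a log2 fold change of -0.77 (adjusted p = 0.0827). Across the 50 pairs the changes of gene and neighbour correlated with r = 0.21, as a description over genes that share the same 6 libraries.

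Genes with few and with many reads differed. The 33 genes averaging 300 counts or more over the libraries had a median log2 fold change of -0.03, against -0.08 for all tested genes of such counts, with 4 called lower and 2 higher (18.2% called, against 35.5%). The 37 with fewer reads had a median of -0.58, against -0.05 for all tested genes with as few, and 31 of them were below 0. Only mRpL30 of the latter was past the threshold (2.70% called, against 6.32%), and their SEs had a median of 0.63, against 0.28 for the others. The correlation between the log2 fold change and the log2 of the mean count was 0.46 over the 70 genes and 0.07 over all tested genes. The mean count is itself made partly of DomKD reads, so a gene that is lower in DomKD also has a lower mean. With the log2 of the Ctrl CPM per kb, a level without DomKD reads, the correlation over the 70 genes was 0.46 as well. What lies behind these correlations was not tested.

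**Figure D4:**
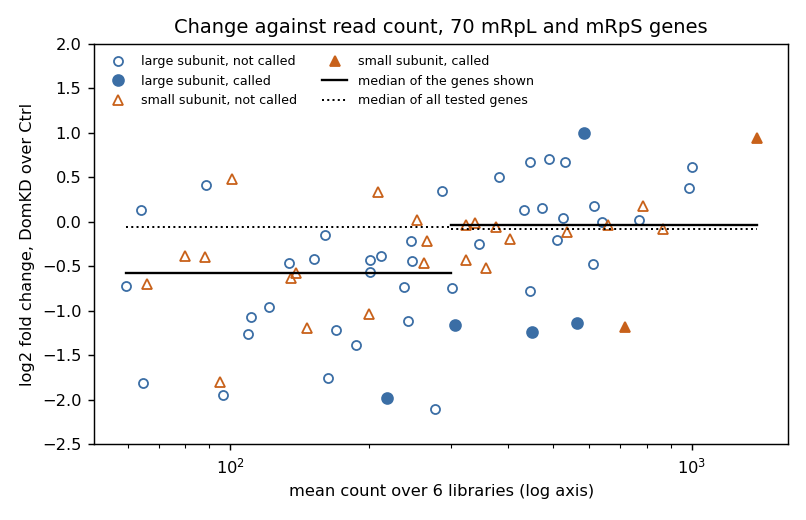
Log2 fold change of DomKD over Ctrl (y axis) against the mean count over 6 libraries (x axis, log scale) for 70 genes, with large subunit genes as circles, small subunit genes as triangles and genes past the threshold filled. Solid lines give the median of the genes on each side of 300 counts (-0.58 and -0.03) and dotted lines that of all tested genes there (-0.05 and -0.08).

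Among the genes of few reads, mRpL1 and mRpL52 had large changes that missed the threshold. mRpL1, for the protein of the mobile stalk where tRNAs leave, had 239, 611 and 649 reads in Ctrl but 0, 37 and 131 in DomKD. The groups did not overlap, but the DomKD libraries spread from none to 9.79 CPM (log2 fold change -2.11, SE 0.84, adjusted p = 0.0973). mRpL52, for a mitochondria-specific protein of the large subunit, was level in Ctrl at 12.1, 12.4 and 13.1 CPM and uneven in DomKD at 0.446, 6.44 and 3.89 (log2 fold change -1.76, SE 0.80, adjusted p = 0.141). mRpS29, for a GTP-binding protein that in mammals is also known as DAP3, was at 9.29, 5.52 and 7.34 CPM in Ctrl and 4.68, 3.78 and 1.12 in DomKD (log2 fold change -1.80, SE 0.81, adjusted p = 0.135).

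No tested gene lacked reads in Ctrl. In DomKD A1 the genes at 0 were mRpL1, mRpL23, mRpL32 and mRpS23 (5.71% of 70, against 9.72% of all tested genes), in DomKD A2 mRpL24 and in DomKD B1 mRpL33 (1.43% in each, against 7.42% and 5.41%). For all 6 of these genes other DomKD libraries held reads.

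On the side of higher values, mRpL34 came after the called genes, at 15.8, 38.1 and 44.5 CPM in DomKD against the Ctrl values given above. Ctrl A1 and DomKD A1 lay beside each other, under the other libraries (log2 fold change 0.70, SE 0.35, adjusted p = 0.184). mRpL22 was at 45.0, 52.9 and 57.7 CPM in Ctrl and 45.5, 85.0 and 89.9 in DomKD (log2 fold change 0.62, SE 0.25, adjusted p = 0.0946). With the scaling on Zelda target genes both had negative values, at -0.28 and -0.37.

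mRpS17 and mRpS18B, also of high level, differed little between groups. mRpS17 was at 42.5, 37.9 and 55.7 CPM in Ctrl and 38.0, 46.1 and 60.8 in DomKD (log2 fold change 0.18, SE 0.24, adjusted p = 0.637). mRpS18B was at 33.6, 32.8 and 44.1 CPM in DomKD, around its Ctrl values (log2 fold change -0.04, SE 0.23, adjusted p = 0.924).

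In mammals the relatives of mRpS18A and mRpS30 were found in the large subunit in spite of their names. mRpS30 was at 46.7, 57.8 and 53.4 CPM in Ctrl and 41.1, 38.4 and 58.7 in DomKD (log2 fold change -0.08, adjusted p = 0.831). mRpS18A differed between batches, with 20.8, 22.4 and 23.5 CPM in Ctrl, 31.9 and 24.0 in DomKD A1 and A2 and 8.15 in DomKD B1 (log2 fold change -0.52, adjusted p = 0.483). Its difference in mean log2 CPM was 0.41 in batch A but -1.48 in batch B. mRpL55, for another mitochondria-specific protein, was at 6.67, 13.6 and 8.97 CPM in Ctrl and 7.58, 8.99 and 7.40 in DomKD (log2 fold change -0.15, adjusted p = 0.885).

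The large subunit had a lower median than the small subunit, at -0.43 over 45 genes against -0.22 over 25. Of the large subunit genes 4 were called lower and 1 higher (11.1% called), and of the small subunit genes 1 in each direction (8.00%), both below the 21.7% of all tested genes. Values below 0 were found for 30 large and 20 small subunit genes. The DomKD libraries lay under all Ctrl libraries in 14 large (31.1%) and 4 small subunit genes (16.0%), against 23.4% of all tested genes. The difference between the subunits turned with the read count. Among genes averaging 300 counts or more the median was 0.05 in the large (21 genes) and -0.07 in the small subunit (12 genes), and among genes with fewer reads -0.72 (24 genes) and -0.46 (13 genes). With mRpS18A and mRpS30 counted as large subunit genes the difference of medians stayed at -0.21.

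The 43 genes with a counterpart in bacteria had a median of -0.43 with 4 called lower and 1 higher (11.6%), and the 27 found only in mitochondria one of -0.22 with 1 called in each direction (7.41%). Within the large subunit the medians were -0.45 over 28 and -0.25 over 17, and within the small subunit -0.38 over 15 and -0.17 over 10. By location, the 11 genes on X had a median of -0.08 with 1 called (9.09%), and the 59 on autosomes one of -0.40 with 6 called (10.2%). These shares too were below the 21.7% of all tested genes.

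The mean log2 CPM of the 70 genes in a library was set against the mean over every tested gene there. The difference was -0.09 (A1), 0.14 (B1) and 0.18 (B2) in the Ctrl libraries and -0.56 (A1), -0.39 (A2) and -0.19 (B1) in the DomKD libraries. Every DomKD library lay below every Ctrl library, and in both groups the libraries of batch A were the lower ones. DomKD minus Ctrl was -0.46 over both batches, -0.39 in batch A and -0.35 in batch B, with a pooled SD between libraries of 0.17. The large minus the small subunit was 0.05, 0.04 and 0.02 in the Ctrl libraries and -0.39, -0.08 and -0.10 in the DomKD libraries. DomKD A1 stood apart there, and DomKD minus Ctrl was -0.29 in batch A but -0.13 in batch B. Depth went the same way, DomKD libraries being shallower within each batch, and its part in these values was not tested.

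**Figure D5:**
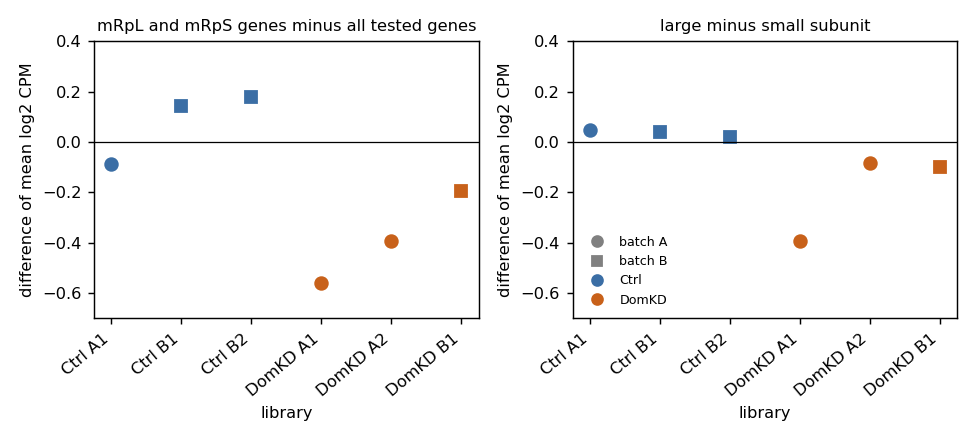
Difference of mean log2 CPM (y axis) for each of the 6 libraries (x axis), on the left between the 70 mRpL and mRpS genes and all tested genes and on the right between 45 large and 25 small subunit genes, with batch A as circles and batch B as squares. DomKD libraries lie between -0.56 and -0.19 on the left and between -0.39 and -0.08 on the right, all under the Ctrl libraries.

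The reads of the genes made up 0.157% to 0.204% of the counts in Ctrl and 0.0987% to 0.132% in DomKD. Once library sizes were scaled the summed level overlapped, at 1393 to 1584 CPM in Ctrl and 1195 to 1559 in DomKD. The scaling factors themselves split by group, at 1.13 to 1.29 in Ctrl and 0.826 to 0.848 in DomKD.

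The changes held in both batches for some genes only. The difference in mean log2 CPM was negative within both batches for 33 of 70 genes (47.1%, against 40.7% of all tested genes) and positive within both for 11 (15.7%, against 33.6%). For the 7 genes past the threshold it had the same sign in both, for example -1.40 and -0.95 for mRpS9, -1.17 and -1.14 for mRpL12 and 0.57 and 1.33 for mRpS7. In batch A the median over the 70 genes was -0.28, against -0.15 over all tested genes, and in batch B -0.30, against -0.03.

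The calls depended on single libraries. Without DomKD B1, the only DomKD library of its batch, 0 of the 70 genes were called lower and 0 higher, and 9 of 10450 genes in all (0.0861%). Without Ctrl A1, the only Ctrl library of batch A, 0 were called lower and 1 higher (mRpS7). Of all tested genes 1.81% were then called lower and 4.38% higher. Without Ctrl B1 1 was called in each direction (all tested genes 3.88% lower and 8.63% higher). Without Ctrl B2 1 was lower and 2 higher (all tested genes 3.91% and 9.14%). Without DomKD A1 9 were lower and 4 higher (all tested genes 15.1% and 14.5%). The calls over the whole table thus moved along with those of the 70 genes. Of 15 alternatives, the call was kept in 13 for mRpS9, in 12 for mRpS7, in 11 for mRpL37, in 10 for mRpL27, in 9 for mRpL30 and in 8 for both mRpL12 and mRpL42. With the number of the replicate as a block in place of batch, only mRpS9, mRpL37 and mRpS7 were called (4.29%, against 9.92% of all tested genes).

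Other parts of the machinery were read from lists. tko and bonsai encode the fly relatives of S12, at the decoding centre, and S15. bonsai was at 49.9, 48.3 and 48.7 CPM in Ctrl and lower in all DomKD libraries, with a mean of 32.5 ± 8.10 (SD, n = 3), but missed the threshold (log2 fold change -0.53, SE 0.24, adjusted p = 0.141). tko had 3.86 ± 1.92 CPM in Ctrl and 6.65 ± 6.50 in DomKD (log2 fold change 0.12, SE 0.94, adjusted p = 0.948), and the sign of its change turned with total-count scaling and with the scaling on Zelda target genes. The mitochondrial ribosomal RNAs mt:lrRNA and mt:srRNA are listed with 0 counts in all 6 libraries. What lies behind these zeros was not tested, so they say nothing of transcription in mitochondria.

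A list of 39 genes that act with the ribosome in mitochondrial gene expression had 35 tested, of which 8 were called lower and 1 higher, with a median of -0.58. The share called in either direction was 25.7%, near the 21.7% of all tested genes. By direction the list differed from the whole table, with 8 of its 9 calls lower. The list was drawn up with earlier results of these data known, so its shares, here and below, are descriptions only. Of all tested genes 9.64% were called lower and 12.1% higher. Among the 15 aminoacyl-tRNA synthetases of mitochondria 4 were called lower (26.7%, against 9.64% of all tested genes called lower), with a median of -0.87. They were AspRS-m (113 ± 9.42 CPM in Ctrl, 48.1 ± 17.8 in DomKD, log2 fold change -1.36, adjusted p = 0.00404), PheRS-m (log2 fold change -1.13, adjusted p = 0.0313), AsnRS-m (-1.80, 0.0399) and ArgRS-m (-0.88, 0.0440). Of 10 tested genes for transcription and upkeep of mitochondrial DNA 3 (30.0%) were called lower, namely bsf (-1.35, adjusted p = 0.0113), which acts on mitochondrial messages, mtSSB (-1.89, adjusted p = 0.0359), the single-strand binding protein, and mtTFB2 (-1.44, adjusted p = 0.0372), a factor for mitochondrial transcription. Of 10 tested translation factors mRRF2, which acts in ribosome recycling, was called lower (-0.92, adjusted p = 0.0445) and mRF1, a release factor, higher (0.72, adjusted p = 0.0207), the latter with -0.27 under the scaling on Zelda target genes. Among these 9 genes the call held in 7 to 14 of 15 alternatives, from mRRF2 and mRF1 to AspRS-m.

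Cytoplasmic ribosomal protein genes had a median of 0.29 over 88 tested genes, with 1 called lower and 17 higher. Genes for subunits of oxidative phosphorylation had a median of -0.11 over 69, with 6 called lower and 8 higher. Counted in either direction, the shares called, 20.5% and 20.3%, were near the 21.7% of all tested genes. Of all tested genes 9.64% were called lower and 12.1% higher. By direction the cytoplasmic set leaned to higher values under the main scaling. There 71 of its 88 genes were above 0, against 31 of 69 for oxidative phosphorylation and 4934 of 10429 over all tested genes. Only descriptions are given for these sets, and the differences between them were not tested.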

How the data were processed

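The authors deposited raw whole-number counts of each gene in each library. By the study's methods and the submitters' processing notes, adapters were cut with Cutadapt 2.5, random tetramers handled with UMI-tools 1.0, reads aligned to dm6 with Bowtie2 in local mode, and reads above a minimum mapping quality counted over gene spans by featureCounts, with regard to strand. Duplicates were kept, so read counts are not independent molecules. The SEs and adjusted p come from a fit that also takes in the spread between libraries. All 6 columns were matched to samples by title, and 0 columns were left over. Of 17753 genes 17626 were matched by FlyBase identifier to an Ensembl annotation of the same assembly. Of 30630 annotated start codons 99.8% read ATG. The gene length in the table equalled the annotated span for all 72 members.

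Genes averaging 10 counts or more were tested with the quasi-likelihood test of edgeR 4.0.16 in R 4.3.3 (robust, two-sided, TMM scaling, batch and group in the model, Benjamini-Hochberg over all tested genes, threshold 0.05). SEs were taken as the log2 fold change over the root of the F statistic. CPM were scaled by TMM, with a prior count of 2 on the log2 scale. Alternatives used DESeq2 1.42.0, other scalings (a hand-written list of Zelda targets, 48 of 50 tested, stands in for the study's own set), other count filters, other model terms and each library left out. The pipeline was tested on simulated data. Libraries differed by at least 32.6 times the Poisson variance, so each was counted as its own sample.

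Genes named are those past the threshold, the 3 highest per kb in each subunit, the 3 largest changes in each direction averaging 100 counts or more, 6 listed genes, the untested ones, and outside the members tko, bonsai, the mitochondrial rRNAs and called genes of the mitochondrial gene expression list. Others were picked after their values were seen. Members and lists were chosen with earlier results of these data known.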

Additional observations from a re-analysis of the deposited data

How the results depend on the processing

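The counts of called genes moved with scaling, since other factors shift every gene. Over the whole table the median change was -0.07 under TMM. It moved to -0.56 when total counts set the scale and to -1.06 when Zelda target genes did, where 14 and 37 of the 70 genes were called lower and 0 higher in both. With total counts 26.3% of all tested genes were called lower, a larger share than among the 70, and with Zelda target genes 45.1%, a smaller share than the 52.9% among the 70. Relative to all tested genes the median of the 70 genes stayed between -0.32 and -0.31 under the scalings tried. Scaling moves every gene alike, so it could hardly change this difference. With each library left out in turn the difference lay between -0.30 and -0.19. It was -0.25 with every gene of at least 1 count and -0.27 with a minimum mean of 50 counts. Without the batch term 4 were called lower and 1 higher (6.82% and 8.57% of all tested genes). With a replicate block instead of batch 2 were lower and 1 higher (4.08% and 5.85% of all tested genes). Libraries of one number do not deviate together (r from -0.36 to 0.24), so the numbers do not pair them. DESeq2 called 6 lower and 3 higher (11.4% and 16.1% of all tested genes). Leaving out each library in turn gave 0 to 9 lower and 0 to 4 higher. Of all tested genes this gave 0.0287% to 15.1% lower and 0.0574% to 14.5% higher. Within batch A the median relative to all tested genes was -0.13 and the large minus small subunit median -0.076. Among genes averaging 300 counts or more both differences turned, to 0.045 and 0.11. Signs of single genes turned with Zelda-list scaling for mRpS7 (-0.036), mRpL34 (-0.28), mRpL22 (-0.37), mRpS17 (-0.82), tko (-0.88) and mRF1 (-0.27), with total counts for mRpS17 (-0.31) and tko (-0.37), and for mRpS18B with RLE (0.0096), a minimum mean of 50 counts (0.0073) and DESeq2 (0.0100). With each library left out in turn, the change ranged from -1.15 to 0.27 for mRpL10, from -1.56 to 0.43 for mRpS18A, from -0.67 to 0.31 for mRpL55, from -0.018 to 0.31 for mRpS17, from -0.19 to 0.041 for mRpS18B, from -0.23 to 0.015 for mRpS30 and from -0.64 to 0.80 for tko. The causes were not tested. Of 270 values of the 18 named members 207 kept direction and side of the threshold, 33 were no longer past it, 15 newly past it and 15 turned sign.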
